A study of Mus musculus with 12 samples.

Results

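The genes described here are 39 genes of the amino acid response: Atf4, its related transcription factors and stress regulators, enzymes that make amino acids and one-carbon units, amino acid transporters, and cytosolic tRNA synthetases. They were taken by gene symbol from the 49315 genes of the count table. All 39 were found and all 39 were among the 16565 genes that passed the filter on low counts. ATF4 is a transcription factor whose protein is made when kinases that sense amino acid shortage, ER stress or other strain phosphorylate the translation factor eIF2. It binds, usually with a C/EBP partner, to a composite element in the promoters of genes that import amino acids, make serine, asparagine and proline, and charge tRNAs. Chondrocytes secrete large amounts of collagen and proteoglycan, and mice without Atf4 have short limbs and disturbed growth plates. ATF4 is controlled mainly through translation, so its mRNA is not a measure of its protein.

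The study sequenced RNA from primary epiphyseal chondrocytes of 5-day-old mice labelled female in 4 genotypes of 3 samples each: WT, Phlpp1 KO, Phlpp2 KO and Phlpp1/2 KO, which lacks both genes. PHLPP1 and PHLPP2 are phosphatases that remove phosphate from AKT, PKC and other kinases. The labels name no added agent or transgene for any group, and no promoter or Cre that would limit a deletion to 1 cell type. The strain is written C57BL6 for all WT and Phlpp1 KO samples and for Phlpp2 KO 1 and 2, while Phlpp2 KO 3 and the 3 Phlpp1/2 KO samples carry the same letters with rising final digits. After collagenase digestion the cells were stored frozen, and the thawed cells spent a night in culture in serum-containing DMEM before lysis, so all 4 genotypes shared a culture step. Whether a sample came from 1 animal or from several was not stated, so p-values measure only the spread between these samples.

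Library totals ran from 21706337 to 33115345 counts, and 1 count was worth 0.0295 to 0.0453 CPM, the unit of level used throughout, in which counts are scaled to a common effective library size. Pearson's r of log2 CPM was 0.993 to 0.996 within genotypes and 0.990 to 0.996 between them. Phlpp1 was at 35.1 to 44.6 CPM in the 6 libraries that keep it and at 7.71 to 9.46 CPM in the 6 that lack it. Phlpp2 was at 22.5 to 28.1 CPM in WT and Phlpp1 KO, at 16.8 to 19.4 CPM in Phlpp2 KO and at 10.2 to 11.4 CPM in Phlpp1/2 KO. All 9 chondrocyte markers, among them Col2a1 at 20750 to 40260 CPM and Acan at 2993 to 4924 CPM, were present in all libraries, and their summed level ran from 29950 to 54330 CPM. Xist was at 13.9 CPM in Phlpp1 KO 1 and at 3.77 CPM in Phlpp1/2 KO 1, against at least 278 CPM elsewhere, and Phlpp1/2 KO 1 held 108.5 CPM of Y-linked genes although it is labelled female. These were bulk libraries, in which fewer cells of a type and less RNA per cell cannot be told apart.

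ATF4 and its C/EBP partners recognise a composite element, TGATGNAA, and the stretches that hold it in the members' promoters are shown because it is the feature that defines the response at the DNA level. RefSeq promoter windows of 300 bases, from 250 before to 50 after the start, were matched for 33 of the 39 members on GRCm38.p6. Of these 33, 12 (36.4%) held TGATGNAA on either strand, against 4.51% of 27025 genes with a window. The stricter form TGATGCAA, which is contained in it, was found in 9 (27.3%) against 1.03%, and the cAMP response element TGACGTCA was found in Ppp1r15a alone (3.03% against 2.03%). A match describes the letters and is not a measured binding site. The members were chosen as genes of the ATF4 response, so a share above that of all genes can follow from the choice. It is not a result of the RNA data. Below, for 8 of those members, is a stretch of 50 bases that lies before the start and holds the match, written in the direction of the gene, with the matches in capitals. A match on the opposite strand reads as the reverse complement.
Chac1: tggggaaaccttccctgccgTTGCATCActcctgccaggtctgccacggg
Atf3: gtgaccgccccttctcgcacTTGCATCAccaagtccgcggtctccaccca
Nupr1: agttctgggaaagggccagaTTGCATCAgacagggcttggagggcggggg
Got1: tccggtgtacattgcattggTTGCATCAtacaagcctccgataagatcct
Pycr1: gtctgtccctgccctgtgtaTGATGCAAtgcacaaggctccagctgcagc
Slc7a11: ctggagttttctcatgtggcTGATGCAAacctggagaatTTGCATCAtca
Asns: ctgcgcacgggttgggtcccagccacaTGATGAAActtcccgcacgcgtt
Gars: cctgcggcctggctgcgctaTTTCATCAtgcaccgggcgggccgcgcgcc

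On GRCm38.p6 these stretches lie at chr2:119351029-119351078 on the plus strand (Chac1), chr1:191183414-191183463 on the minus strand (Atf3), chr7:126625551-126625600 on the minus strand (Nupr1), chr19:43524678-43524727 on the minus strand (Got1), chr11:120643822-120643871 on the minus strand (Pycr1), chr3:50443650-50443699 on the minus strand (Slc7a11), chr6:7693210-7693259 on the minus strand (Asns) and chr6:55037951-55038000 on the plus strand (Gars). The match began 193 bases before the start in Chac1, and Slc7a11 held a pair of matches on opposite strands. The other members with the element were Aars, Slc1a4, Trib3 and Vldlr. In Trib3 it lay after the start, from base 15. No match was found in the windows of Phgdh and Psat1, the members with the smallest p-values below.

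In wild-type cells the members spanned a wide range of levels when their CPM was divided by exon length. Atf4 was highest at 256 ± 14.0 CPM per kilobase (SD, n = 3), rank 156 of 16524 genes. It was followed by Atf5, a related factor that is also controlled through translation, at 156 ± 11.1. Phgdh, which commits a glycolytic intermediate to serine synthesis, came next at 138 ± 3.85 CPM per kilobase. The glycyl- and asparaginyl-tRNA synthetase genes Gars and Nars were at 110 ± 7.04 and 99.3 ± 3.64 CPM per kilobase, and their ranges touched, with 102.0 as the lowest Gars value and 102.5 as the highest Nars value. Asns, which makes asparagine, was at 66.0 ± 6.35 CPM per kilobase and overlapped Sars (59.4 ± 3.98) in its libraries, while all 3 libraries of Slc3a2 (74.6 ± 3.55) lay just above it.

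The stress effectors were lower in the same wild-type libraries. Ddit3, which encodes the factor CHOP, was at 36.5 ± 5.55 CPM per kilobase, and Trib3, a pseudokinase that restrains AKT and ATF4, was at 23.2 ± 4.80. Chac1, which degrades glutathione, was at 20.5 ± 2.95 CPM per kilobase. At the low end lay Atf3 at 3.95 ± 0.223, Slc7a11 at 1.01 ± 0.120 and Cbs, the first enzyme of transsulfuration, at 0.111 ± 0.0210 CPM per kilobase (rank 15823). Exon length here is the union of all annotated exons, which lowers the value of genes with long rare isoforms.

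**Figure D1:**
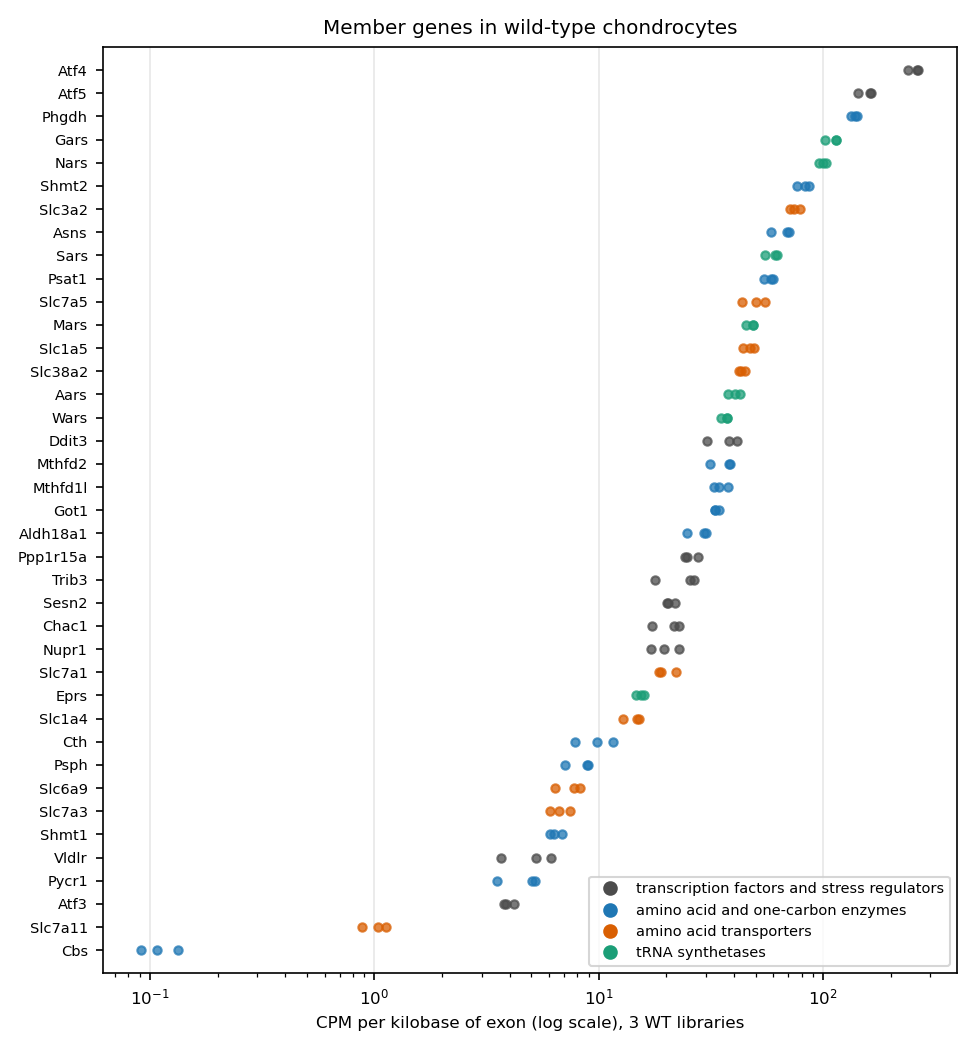
Level of the 39 members in the 3 WT libraries, as CPM per kilobase of exon on a log axis, with a point for each library and colours for the role of the gene. Atf4 is at the top with 239 to 265 CPM per kilobase and Cbs at the bottom with 0.0915 to 0.133.

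No member passed an adjusted p of 0.05 in any of the 7 comparisons (edgeR quasi-likelihood test, Benjamini-Hochberg over 16565 genes). They comprised each of the 6 genotype pairs plus an interaction, which asks whether the effects of the 2 losses add up on the log2 scale. Comparisons that share a genotype are not independent. The shares of all tested genes called were 0.537% for Phlpp1 KO against WT, 0.121% for Phlpp2 KO against WT and 0.235% for Phlpp1/2 KO against WT. They were 0.0121% for Phlpp1/2 KO against Phlpp1 KO, 0.0724% for Phlpp1/2 KO against Phlpp2 KO, 0.151% for Phlpp1 KO against Phlpp2 KO and 0.0483% for the interaction. The count over all genes moved with the fit: for Phlpp1 KO against WT it was 89 here, 988 with DESeq2, 461 with no filter on low counts and 1163 with only the libraries compared, and 0 members were called in each. Limma-voom also called 0 members in each of the 7 comparisons. DESeq2 called 1 member, Phgdh, in Phlpp1/2 KO against WT, where its calls over all genes were 160 in place of 39, and against Phlpp2 KO, where they were 39 in place of 12.

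The member closest to the threshold was a serine pathway enzyme. Phgdh (ENSMUSG00000053398, chr3:98313170-98339990, minus strand, GRCm38) had 331.4, 350.0 and 344.8 CPM in WT, 392.2, 390.0 and 348.9 in Phlpp1 KO, 343.5, 313.6 and 323.9 in Phlpp2 KO, and 409.1, 426.5 and 405.4 in Phlpp1/2 KO. All 3 libraries without both phosphatases lay above each of the other 9. Against WT, Phgdh was 1.21-fold higher in Phlpp1/2 KO (log2 fold change 0.27, SE 0.060, 95% interval 0.14 to 0.41) and an adjusted p of 0.134 in edgeR. The adjusted p was 0.00328 in DESeq2 and ranged from 0.00328 to 0.431 over 15 alternative settings, while the log2 fold change stayed between 0.25 and 0.30.

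Against Phlpp2 KO, Phgdh in Phlpp1/2 KO was 1.27-fold higher (log2 0.34, SE 0.060), with an edgeR adjusted p of 0.0869 and a DESeq2 adjusted p of 0.000131, in a range of 0.000131 to 0.608 over 15 settings. Phlpp1 KO alone stood between WT and the double knockout, at 377 ± 24.4 CPM against 342 ± 9.57 and 414 ± 11.3 (SD, n = 3), and its value overlapped WT through 1 library. Phlpp2 KO was at 327 ± 15.2 CPM and overlapped WT too. The interaction, which is how far the double knockout departed from the sum of the single ones, was 0.20 on the log2 scale (SE 0.085, edgeR adjusted p = 0.295). The table also lists 10 processed pseudogenes with near-identical stretches of Phgdh, such as Gm7901 at 98.75% identity over 1597 bases. Their summed level was 2.19% to 2.60% of the Phgdh level in each library. How reads shared with them were assigned is not stated.

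Psat1 (ENSMUSG00000024640, chr19:15904678-15947337, minus strand) encodes the aminotransferase that acts after PHGDH. Its values were 231.0, 253.6 and 247.9 CPM in WT, 293.0, 260.1 and 238.0 in Phlpp1 KO, 243.5, 229.4 and 230.9 in Phlpp2 KO, and 299.7, 317.6 and 268.1 in Phlpp1/2 KO. The double knockout lay above WT and Phlpp2 KO in all 3 libraries and overlapped Phlpp1 KO. Against WT the log2 fold change was 0.27 (SE 0.081, edgeR adjusted p = 0.257, range 0.0487 to 0.579 over 15 settings). Psph, the phosphatase that completes serine synthesis, had wider replicates and a log2 fold change of 0.16 (SE 0.17, edgeR adjusted p = 0.773). Psph shares 452 exon bases with the opposite-strand gene Cct6a, which was at 546 CPM in WT. The named library kit is not described as keeping strand and the strand setting of the counting was not stated. Whether reads of the pair were kept apart there is therefore not known.

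**Figure D2:**
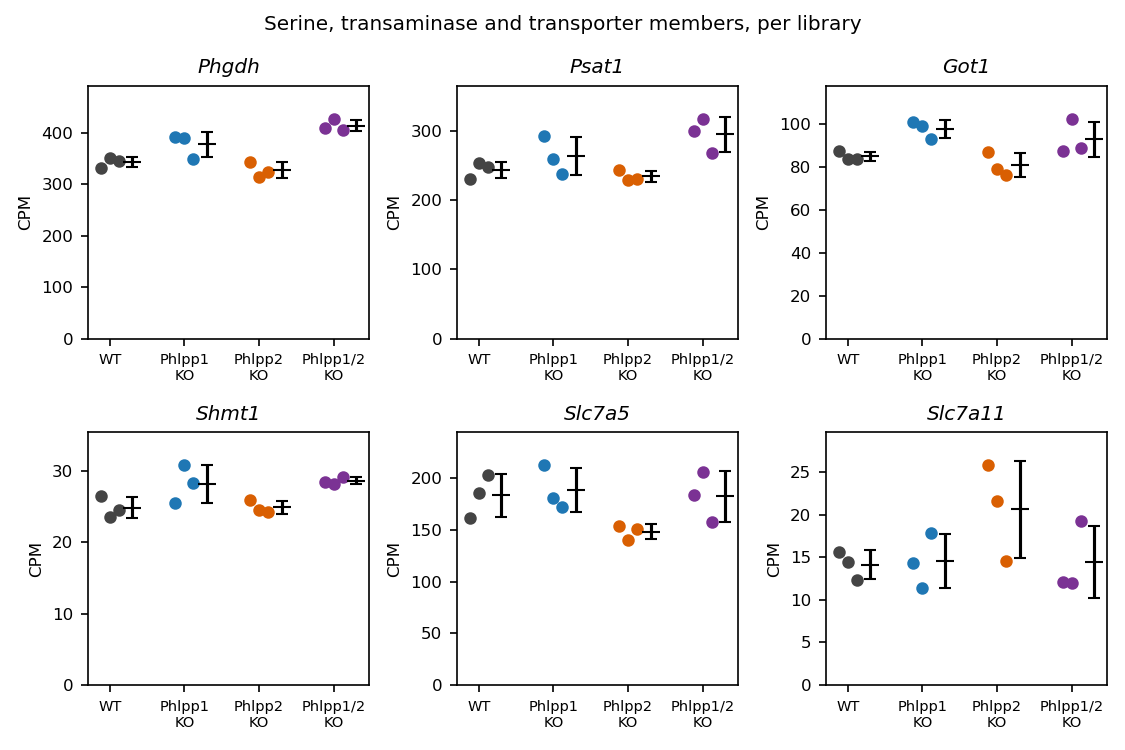
CPM per library for Phgdh, Psat1, Got1, Shmt1, Slc7a5 and Slc7a11 in the 4 genotypes, with the mean and SD of 3 libraries drawn beside the points. The Phlpp1/2 KO points of Phgdh, 405.4 to 426.5 CPM, sit above all others, and the Phlpp2 KO points of Slc7a5, 140.5 to 154.4 CPM, sit below all others.

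Among the other 10 enzymes, Got1, the cytosolic aspartate aminotransferase, had 87.4, 83.8 and 83.8 CPM in WT, 100.8, 99.3 and 93.0 in Phlpp1 KO, 87.0, 78.8 and 76.5 in Phlpp2 KO, and 87.5, 102.4 and 88.8 in Phlpp1/2 KO. The Phlpp1 KO libraries lay above WT (log2 fold change 0.20, SE 0.071, edgeR adjusted p = 0.141) and above Phlpp2 KO (0.27, SE 0.070, adjusted p = 0.191). In the double knockout the lowest library, 87.48 CPM, was barely above the highest WT one, 87.40 CPM. Shmt1, the cytosolic serine hydroxymethyltransferase, had 26.5, 23.5 and 24.5 CPM in WT, 25.4, 30.8 and 28.2 in Phlpp1 KO, 25.9, 24.5 and 24.2 in Phlpp2 KO, and 28.5, 28.2 and 29.1 in Phlpp1/2 KO. The double knockout stood apart from WT with a log2 fold change of 0.20 (SE 0.076, edgeR adjusted p = 0.342), and the Phlpp1 KO value was 0.18 (SE 0.076, adjusted p = 0.205). Shmt1 shares 184 exon bases with Smcr8 on the opposite strand.

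Mthfd2, the mitochondrial enzyme that passes serine-derived carbon to formate and is a common marker of ATF4 activity, had 108.9, 134.1 and 132.1 CPM in WT, 176.0, 126.3 and 127.3 in Phlpp1 KO, 120.5, 119.8 and 126.0 in Phlpp2 KO, and 145.1, 167.3 and 118.2 in Phlpp1/2 KO. Each knockout overlapped WT, with log2 fold changes against WT of 0.20, -0.035 and 0.20 (SE 0.15 each) and edgeR adjusted p of 0.487, 0.940 and 0.654. Asns had 160.6, 192.9 and 187.8 CPM in WT, 211.1, 170.6 and 165.1 in Phlpp1 KO, 170.0, 156.6 and 166.0 in Phlpp2 KO, and 185.8, 227.1 and 168.4 in Phlpp1/2 KO. It overlapped between WT and each knockout. The 95% interval of its log2 fold change in Phlpp1 KO against WT, -0.26 to 0.29, leaves room for changes in either direction.

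Over the 13 enzymes, 12 had a higher estimate in Phlpp1/2 KO than in WT, with Cbs the exception, and their median log2 fold change was 0.14 beside -0.0014 over all genes tested. This count was not repeated without Phlpp1/2 KO 2. Without that library Asns turned to -0.028, and the 39 members turned from 26 higher and 13 lower to 13 higher and 26 lower. With any single library left out, Phgdh stayed at 0.25 or more and Psat1 at 0.22 or more. Unadjusted p was under 0.05 for 3 of them (Phgdh, Psat1 and Shmt1), where 11.1% of all tested genes had one. With Got1, 4 lay above WT without overlap, where 8.57% of all tested genes did. They were the only ones of the 39 members to do so (10.3%). The remaining enzymes Shmt2, Mthfd1l, Aldh18a1, Pycr1, Cth and Cbs had log2 fold changes against WT from -0.41 to 0.27 over the 3 knockouts. Cth, which makes cysteine from cystathionine, spread most, from 21.8 to 46.3 CPM over the 12 libraries.

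None of the transporters among the members passed the test in any comparison. Slc7a5, the light chain of the large neutral amino acid exchanger LAT1, had 161.3, 186.1 and 203.2 CPM in WT, 212.6, 181.1 and 171.9 in Phlpp1 KO, 154.4, 140.5 and 150.9 in Phlpp2 KO, and 184.0, 206.4 and 157.5 in Phlpp1/2 KO. The Phlpp2 KO libraries lay below those of all 3 other genotypes. Against WT the log2 fold change was -0.30 (SE 0.11, 95% interval -0.56 to -0.051, edgeR adjusted p = 0.258, range 0.168 to 0.578 over 15 settings). Slc3a2, the heavy chain CD98 that carries LAT1 to the surface, had 276.6, 251.7 and 261.5 CPM in WT, 262.7, 247.5 and 238.3 in Phlpp1 KO, 249.2, 240.5 and 224.7 in Phlpp2 KO, and 245.4, 262.7 and 243.9 in Phlpp1/2 KO. Phlpp2 KO was below WT in all libraries (log2 fold change -0.14, SE 0.062, edgeR adjusted p = 0.330) and overlapped the other knockouts.

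The neutral amino acid carriers Slc1a4 (ASCT1) and Slc1a5 (ASCT2) also had their lowest group means in Phlpp2 KO. Slc1a4 had 50.3, 59.6 and 57.9 CPM in WT, 65.5, 53.4 and 54.0 in Phlpp1 KO, 48.6, 49.0 and 47.9 in Phlpp2 KO, and 52.2, 59.8 and 45.8 in Phlpp1/2 KO. Slc1a5 had 196.6, 182.7 and 204.3 CPM in WT, 209.0, 214.7 and 201.6 in Phlpp1 KO, 190.8, 167.2 and 175.4 in Phlpp2 KO, and 190.4, 204.8 and 188.5 in Phlpp1/2 KO. Only Slc1a4 did not overlap between Phlpp2 KO and WT, and the log2 fold changes were -0.21 (SE 0.10, edgeR adjusted p = 0.402) and -0.13 (SE 0.064, adjusted p = 0.400).

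Slc7a11, the cystine importer xCT, ran the other way. It had 15.6, 14.5 and 12.3 CPM in WT, 14.4, 11.4 and 17.8 in Phlpp1 KO, 25.8, 21.6 and 14.5 in Phlpp2 KO, and 12.1, 11.9 and 19.3 in Phlpp1/2 KO. Of the Phlpp2 KO libraries, 2 were above all others and 1 lay within the WT range (log2 fold change 0.55, SE 0.24, edgeR adjusted p = 0.355). Slc7a11 shares a stretch of 373 bases with the tubulin gene Tuba1b (96.25% identity, 720 CPM in WT), so reads of that stretch could be counted for either gene. The other transporters Slc7a1, Slc7a3, Slc38a2 and Slc6a9 had log2 fold changes of -0.22 to 0.11 in the 3 knockouts against WT and adjusted p of at least 0.480.

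Atf4 itself (ENSMUSG00000042406, chr15:80255184-80257541, plus strand) had 564.6, 624.4 and 619.0 CPM in WT, 748.0, 633.2 and 607.1 in Phlpp1 KO, 629.3, 560.8 and 552.3 in Phlpp2 KO, and 642.9, 738.1 and 589.0 in Phlpp1/2 KO. The genotypes overlapped, with log2 fold changes against WT of 0.14, -0.053 and 0.12 (SE 0.095 each) and edgeR adjusted p of 0.447, 0.846 and 0.668. The 95% intervals ran from -0.083 to 0.36, from -0.27 to 0.17 and from -0.096 to 0.34. Atf5 overlapped in the same way, and Atf3 stayed between 7.21 and 12.1 CPM in all libraries.

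The effectors of the stress arm varied more between libraries of a genotype than between genotypes. Ddit3 had 52.1, 70.6 and 65.2 CPM in WT, 82.3, 50.5 and 55.2 in Phlpp1 KO, 49.99, 56.1 and 58.4 in Phlpp2 KO, and 56.3, 82.7 and 48.9 in Phlpp1/2 KO. Trib3 had 37.7, 56.4 and 54.1 CPM in WT, 67.4, 36.3 and 40.4 in Phlpp1 KO, 35.7, 43.5 and 45.4 in Phlpp2 KO, and 45.6, 64.9 and 32.6 in Phlpp1/2 KO. In both genes the highest libraries were Phlpp1 KO 1 and Phlpp1/2 KO 2, and each knockout overlapped WT. Chac1 had 28.2, 35.4 and 37.3 CPM in WT, 43.8, 31.7 and 32.1 in Phlpp1 KO, 29.2, 31.0 and 33.4 in Phlpp2 KO, and 41.2, 50.5 and 29.3 in Phlpp1/2 KO. Its log2 fold change in the double knockout against WT was 0.26 with an SE of 0.19 (edgeR adjusted p = 0.651). For Ddit3 and Trib3 the same values were 0.00039 (SE 0.22) and -0.053 (SE 0.28). Their 95% intervals, -0.51 to 0.51 and -0.70 to 0.60, leave room for changes in either direction.

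Sesn2, Nupr1, Ppp1r15a and Vldlr, which dampen growth signalling, act in chromatin under stress, recruit a phosphatase to eIF2 and take up lipoprotein, completed the group. Of its 10 genes, 6 had a higher estimate in Phlpp1 KO than in WT, 2 in Phlpp2 KO and 6 in Phlpp1/2 KO, with no unadjusted p under 0.05 in these 3 comparisons. Sesn2 and Ppp1r15a in Phlpp2 KO lay below WT in all libraries, with log2 fold changes of -0.16 and -0.18 (SE 0.098 and 0.10). They were 2 of the 10 (20%), where 8.87% of all tested genes lay below WT without overlap.

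**Figure D3:**
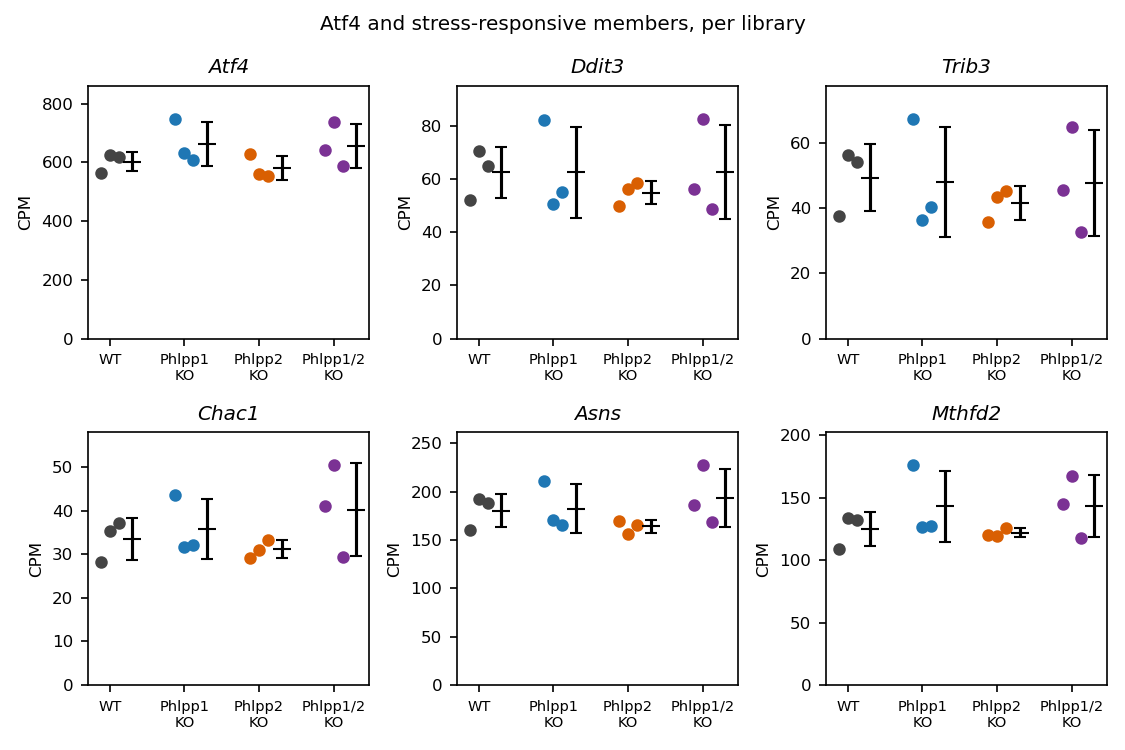
CPM per library for Atf4, Ddit3, Trib3, Chac1, Asns and Mthfd2 in the 4 genotypes, with the mean and SD of 3 libraries drawn beside the points. In all 6 genes Phlpp1 KO 1 and Phlpp1/2 KO 2 are the highest libraries of their genotype, as for Ddit3 at 82.3 and 82.7 CPM.

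None of the 7 cytosolic tRNA synthetases, which load amino acids onto their tRNAs, passed the test in any comparison. Their log2 fold changes against WT ran from -0.023 to 0.15 in Phlpp1 KO, from -0.14 to 0.045 in Phlpp2 KO and from -0.021 to 0.11 in Phlpp1/2 KO. Eprs, the glutamyl-prolyl synthetase, had 266.3, 279.0 and 287.9 CPM in WT, 340.0, 282.8 and 299.4 in Phlpp1 KO, 294.4, 267.7 and 297.6 in Phlpp2 KO, and 262.6, 298.9 and 275.4 in Phlpp1/2 KO. Eprs was the synthetase with the smallest p against WT (Phlpp1 KO, log2 fold change 0.15, SE 0.076, edgeR adjusted p = 0.300), and its Phlpp1 KO libraries overlapped WT. In Phlpp1 KO, 4 of the 7 lay above Phlpp2 KO without overlap, where 7.35% of all genes did. In that comparison 0 of the 7 had an unadjusted p under 0.05, where 10.4% of all genes had one. In Phlpp1/2 KO against Phlpp2 KO, 3 of the 7 had an unadjusted p under 0.05, where 8.84% of all genes had one. Of the 7, 1 lay above Phlpp2 KO without overlap there, where 7.52% of all genes did.

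Over all 39 members, 28 had a higher and 11 a lower estimate in Phlpp1 KO than in WT, with a median log2 fold change of 0.047 beside -0.013 over all genes. Without Phlpp1 KO 1 the count was 14 higher and 25 lower, with a median of -0.055. Unadjusted p was under 0.05 for 3 members (7.69%) where 20.4% of all genes had one, and 1 member, Got1, lay above WT without overlap, where 14.9% of all genes did.

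In Phlpp1/2 KO, 26 were higher and 13 lower than in WT, with a median of 0.054. Without Phlpp1/2 KO 2 this became 13 higher and 26 lower, with a median of -0.035, and without both low-Xist libraries 31 higher and 8 lower. Unadjusted p was under 0.05 for 3 members (7.69%), where 11.1% of all genes had one.

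In Phlpp2 KO, 7 were higher and 32 lower than in WT, with a median of -0.085 beside -0.017 over all genes, and 7 members (17.9%) lay below WT without overlap, against 8.87% of all genes. These were Sesn2, Cbs, Slc7a5, Slc3a2, Slc1a4, Wars and Ppp1r15a. Unadjusted p was under 0.05 for 3 members (7.69%) and for 13.8% of all genes.

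Both genotypes that lack Phlpp1 were also set against Phlpp2 KO, and these comparisons share its libraries. In Phlpp1/2 KO, 34 of 39 were higher than in Phlpp2 KO, with a median of 0.16 beside 0.0005 over all genes. Unadjusted p was under 0.05 in 10 (25.6%, all higher) where 8.84% of all genes had one, and 7 members (17.9%) lay above Phlpp2 KO without overlap, where 7.52% of all genes did. Without Phlpp1/2 KO 2 the direction count was 27 against 12 and the median 0.063, and unadjusted p was under 0.05 in 3 members in place of 10. Without Phlpp1/2 KO 3 it was under 0.05 in 20. The share of all genes was not counted in those fits.

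In Phlpp1 KO, 35 of 39 were higher than in Phlpp2 KO, with a median of 0.16. Unadjusted p was under 0.05 in 7 (17.9%, all higher) where 10.4% of all genes had one, and 11 members (28.2%) lay above it without overlap, where 7.35% of all genes did. Those 11 were Phgdh, Mthfd2, Got1, Slc7a1, Slc7a5, Slc1a4, Slc1a5, Aars, Gars, Sars and Mars. Without Phlpp1 KO 1 the count was 24 against 15 and the median 0.033, and unadjusted p was under 0.05 in 5 members. It was under 0.05 in 4 without Phlpp2 KO 2 and in 11 without Phlpp1 KO 3. Between Phlpp1/2 KO and Phlpp1 KO, 23 were higher and 16 lower, with a median of 0.0029. Without Phlpp1/2 KO 2 this became 8 higher and 31 lower (median -0.11), and without Phlpp1 KO 1 it became 31 higher and 8 lower (0.10). Phgdh was the 1 member with an unadjusted p under 0.05 (7.9% of all genes) and the 1 that lay above without overlap (7.2% of all genes). The interaction was positive for 32 and negative for 7, with a median of 0.092 beside 0.037 over all genes, and unadjusted p was under 0.05 for 1 member, Phgdh, and for 14.5% of all genes. Without Phlpp1/2 KO 2 the interaction was positive for 18 and negative for 21 (median -0.0076). Without Phlpp1 KO 1 it was positive for 35 and negative for 4 (0.21).

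**Figure D4:**
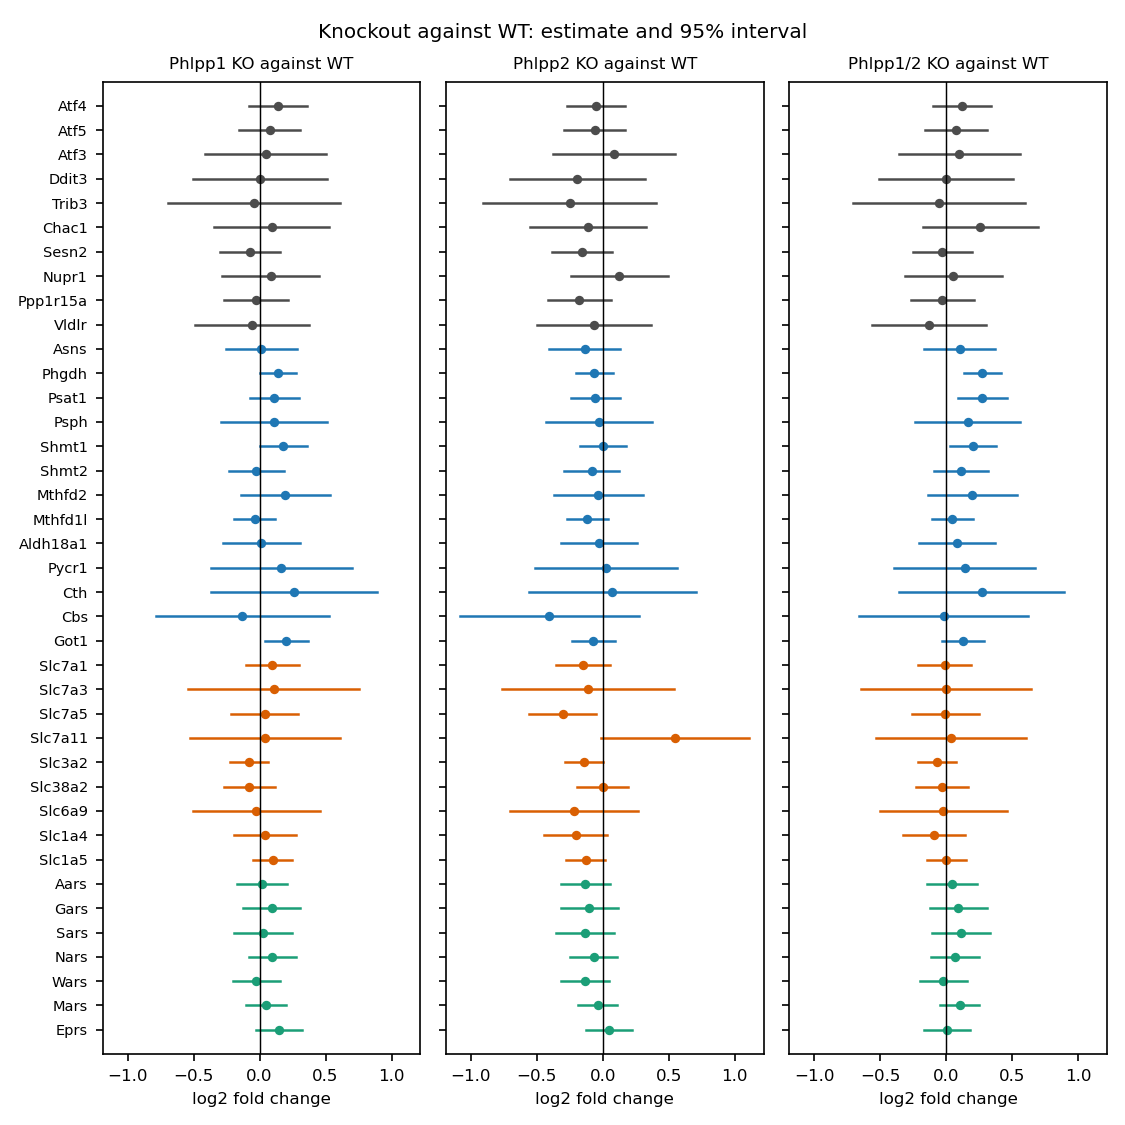
Log2 fold change of each member in the 3 knockouts against WT, with points for the estimate, lines for the 95% interval and the genes in 4 role groups from top to bottom: regulators, enzymes, transporters and tRNA synthetases. The largest estimates are 0.55 for Slc7a11 and -0.41 for Cbs in Phlpp2 KO, and the interval of Phgdh in Phlpp1/2 KO runs from 0.14 to 0.41.

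The members tended to be high or low together among libraries of the same genotype. Phlpp1/2 KO 2 was the highest of the 12 libraries for 18 members and Phlpp1 KO 1 for 13. In Phlpp1 KO 1, 37 of 39 members were above the mean of their genotype, with Shmt1 and Cbs the exceptions, and in Phlpp1/2 KO 2 it was 36 of 39. In Phlpp1/2 KO 3, 36 members were below the mean of their genotype, in Phlpp1 KO 3 it was 35, and in WT 1 it was 32. Deviations from the mean of the 3 libraries of a genotype cancel out for each gene. Members high in one library are therefore low in others of that genotype, and these counts are not independent. Shmt1, Slc7a11 and Slc38a2 were the 3 that ran against the others in both Phlpp1/2 KO 2 and Phlpp1/2 KO 3. The Phlpp2 KO libraries showed no such split, with 23, 13 and 22 members above their mean. The same counts were not made over all tested genes. Over all tested genes, deviations from the genotype mean had an r of 0.273 between Phlpp1 KO 1 and Phlpp1/2 KO 2. It was 0.404 between Phlpp1 KO 3 and Phlpp1/2 KO 3, and -0.37 between Phlpp1 KO 1 and Phlpp1/2 KO 3. Whether the pattern is particular to the members was not tested.

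The SD of log2 CPM within genotypes had a median of 0.14 over the 39 members, beside 0.098 over 9279 tested genes at a mean of at least 10 CPM. It was widest for Trib3 (0.39), Slc7a3 (0.38), Cth (0.36), Slc7a11 (0.33) and Pycr1 (0.32), and narrowest for Phgdh (0.065). The 12 members whose promoter window held TGATGNAA had a median SD of 0.24 and the 21 whose window did not had 0.13. Their median log2 fold changes in Phlpp1/2 KO against WT were alike at 0.073 and 0.077. These groups of members were not matched for level, and the part of level in their SDs was not tested.

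The summed level of the 9 chondrocyte markers differed between the same libraries. It was 36230, 44430 and 54330 CPM in WT 1 to 3, 53560, 40530 and 42600 in Phlpp1 KO, 37770, 38220 and 46820 in Phlpp2 KO, and 39630, 45100 and 29950 in Phlpp1/2 KO. The libraries with most members above their genotype's mean, WT 3, Phlpp1 KO 1 and Phlpp1/2 KO 2, had the highest sum of their genotype, while Phlpp2 KO 1 had the lowest. The 6 fibroblast and perichondrium markers summed to 955.7 to 1465 CPM in WT, 1003 to 1110 in Phlpp1 KO, 922.2 to 1604 in Phlpp2 KO and 801.1 to 1163 in Phlpp1/2 KO, and the 8 macrophage markers to at most 40.0 CPM. The part of these differences in the members' levels was not tested.

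**Figure D5:**
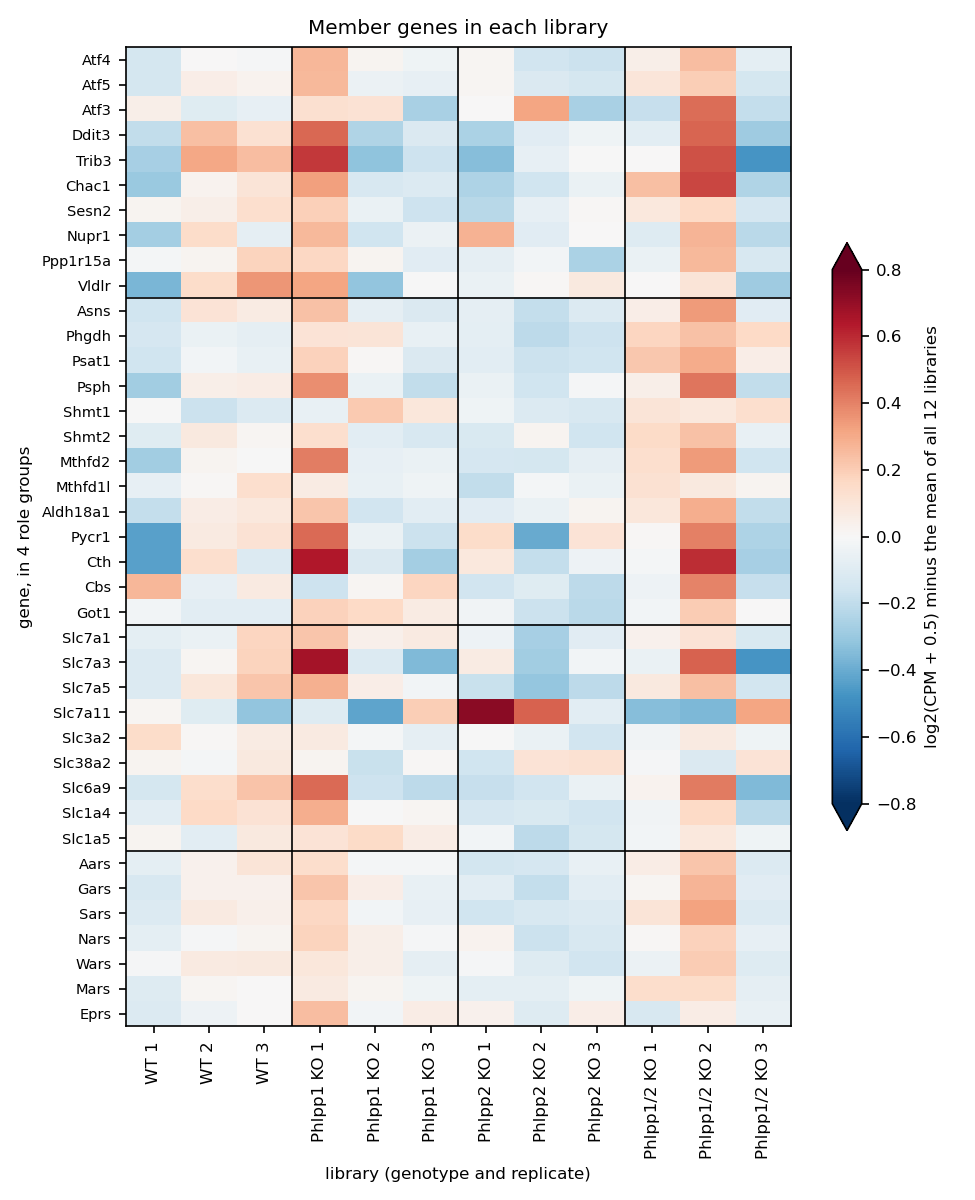
Heat map of the 39 members (rows, in 4 role groups) in the 12 libraries (columns), coloured by log2(CPM + 0.5) minus the mean of all 12 libraries. The columns Phlpp1 KO 1 and Phlpp1/2 KO 2 are red over most rows and hold the highest value of 13 and 18 members, and most rows are blue in the Phlpp2 KO columns, with exceptions such as Nupr1 in Phlpp2 KO 1 and Slc38a2 in Phlpp2 KO 3.

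Other genes of the response were read from 8 further lists. Of the 21 tested of 22 other amino acid transporters, 1 passed the test, and this was the sole gene called over the 8 lists against WT. Of all tested genes, 0.537% passed in Phlpp1 KO against WT and 0.235% in Phlpp1/2 KO against WT. A single gene called among 8 lists was not tested against those shares. Slc43a2, the uniporter LAT4 for branched-chain amino acids and phenylalanine, had 13.9, 14.1 and 13.7 CPM in WT, 7.57, 9.13 and 10.3 in Phlpp1 KO, 11.6, 12.7 and 11.4 in Phlpp2 KO, and 9.37, 8.32 and 9.21 in Phlpp1/2 KO. It fell by 0.63 on the log2 scale in Phlpp1 KO (SE 0.11, edgeR adjusted p = 0.0234) and by 0.63 in Phlpp1/2 KO (SE 0.11, adjusted p = 0.0323), lower in 3 of 3 libraries of each. The Phlpp1 KO call was lost on leaving out any of WT 1, WT 2, WT 3, Phlpp1 KO 1 or Phlpp1 KO 2 (log2 fold change -0.64 to -0.52, adjusted p up to 0.134), and the Phlpp1/2 KO call on leaving out any 1 of its 6 libraries (-0.67 to -0.58, adjusted p up to 0.178). In the same list Slc1a3, a glutamate carrier, was higher in Phlpp1/2 KO by 0.34 (SE 0.070, adjusted p = 0.0928) without passing, as was Slc38a4 by 0.26 (SE 0.097, adjusted p = 0.346).

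Of the 17 genes of the eIF2 kinases, eIF2 and eIF2B, none passed, with 8 higher and 9 lower in each knockout. Eif2s2, the beta subunit of eIF2, had 199.4, 193.3 and 177.2 CPM in WT and 251.4, 248.5 and 264.2 in Phlpp1 KO (log2 fold change 0.42, SE 0.11, edgeR adjusted p = 0.0935). Nck1 in Phlpp2 KO was at 0.39 (SE 0.11, adjusted p = 0.197) and Eif2s1, the alpha subunit, in Phlpp1 KO at 0.27 (SE 0.082, adjusted p = 0.114).

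Of 10 ATF4 partners and related factors none passed. In Phlpp1 KO, 5 of the 10 (50%) lay below WT without overlap, where 13.3% of all tested genes did. It was 2 (20%) in Phlpp1/2 KO, where 10.3% did, and 0 in Phlpp2 KO, where 8.87% did. Cebpd, a C/EBP factor, was at 119.0, 117.5 and 99.3 CPM in WT and 55.5, 59.1 and 78.2 in Phlpp1 KO (log2 fold change -0.80, SE 0.20, edgeR adjusted p = 0.0900). In the same comparison Nfil3 was at -0.35 (adjusted p = 0.144) and Nfe2l2 at -0.22 (adjusted p = 0.147).

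Among 25 other target genes of ATF4, 12 were higher and 13 lower in Phlpp1 KO than in WT, 4 higher and 21 lower in Phlpp2 KO, and 10 higher and 15 lower in Phlpp1/2 KO, with none past the test. Those with the smallest p were Ero1l, an ER oxidase (Phlpp1/2 KO, log2 fold change -0.32, edgeR adjusted p = 0.161), Map1lc3b (Phlpp1 KO, -0.30, adjusted p = 0.0951) and Ifrd1 (Phlpp1 KO, 0.22, adjusted p = 0.158).

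The 28 other amino acid and one-carbon enzymes, 16 other cytosolic synthetase genes and 17 mitochondrial synthetases held no call either. Odc1, which starts polyamine synthesis, was lower in the Phlpp2 KO libraries than in WT without overlap, at 466.7, 364.9 and 369.8 against 574.2, 571.2 and 546.1 CPM (log2 fold change -0.49, SE 0.12, edgeR adjusted p = 0.180). It was the only 1 of the 28 to lie below WT in this way (3.57%), where 8.87% of all tested genes did. Tyms in Phlpp1/2 KO was at 0.26 (edgeR adjusted p = 0.328). Mars2, the mitochondrial methionyl synthetase, was at 0.42 in Phlpp1 KO (SE 0.11, edgeR adjusted p = 0.0879) and Lars2 at -0.64 (adjusted p = 0.139). Of the other cytosolic synthetases, Cars in Phlpp1/2 KO was at 0.17 (adjusted p = 0.359), with Lars at 0.17 and Rars at 0.11 in Phlpp1 KO.

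The 12 ER folding genes, targets of other branches of the unfolded protein response, had lower estimates than WT for 11 in Phlpp1 KO, 9 in Phlpp2 KO and 12 in Phlpp1/2 KO, and none passed. Their medians were -0.10, -0.059 and -0.14. In Phlpp1 KO and in Phlpp1/2 KO, 6 of the 12 (50%) lay below WT without overlap, where 13.3% and 10.3% of all tested genes did. In Phlpp2 KO it was 0, where 8.87% did. Unadjusted p was under 0.05 for 33.3%, 8.33% and 41.7% of the 12 in Phlpp1 KO, Phlpp2 KO and Phlpp1/2 KO, beside 20.4%, 13.8% and 11.1% of all tested genes. Sdf2l1, a chaperone cofactor, had 41.1, 43.3 and 41.9 CPM in WT and 32.9, 35.9 and 33.5 in Phlpp1 KO (log2 fold change -0.31, SE 0.068, edgeR adjusted p = 0.0710). Hspa5, the chaperone BiP, was at -0.21 in Phlpp1/2 KO (SE 0.060, adjusted p = 0.250) and Creld2 at -0.18 in Phlpp1 KO (adjusted p = 0.133).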

How the data were processed

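Counts per gene were deposited by the authors for 12 libraries; per the submitters' processing notes, reads were handled with bcl2fastq 2.17, STAR 2.5.2b and featureCounts of Subread 1.5.2 on mm10. The strand setting and the handling of multi-mapping reads were not stated, and the kit named in the labels is not described there as stranded. From these counts, TMM-scaled CPM were computed, and genes passing filterByExpr (16565 of 49315) were tested with edgeR 4.0.16 (R 4.3.3; quasi-likelihood, robust, 1 model of 4 genotypes, 8 residual degrees of freedom, common biological coefficient of variation 0.105), called at an adjusted p under 0.05. All p-values and fold changes printed are from this fit unless DESeq2 1.42.0 or limma 3.58.1 is named. The code was tested on simulated data.

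The members and the lists were chosen with earlier results of these data known. Values in every library are given for members called in any comparison (none were), for the 10 with the smallest p against WT and for 9 shown in any case (Atf4, Ddit3, Trib3, Chac1, Asns, Phgdh, Psat1, Mthfd2 and Slc7a11); of other lists, for genes called and up to 3 with the smallest p. Some genes that this rule names are not reported here. Deviations used log2(CPM + 0.5). Positions and exon lengths are from GENCODE on GRCm38; promoter windows are from RefSeq, GRCm38.p6, and near-identical stretches were found with BLAST+ 2.17.0 (at least 95% identity over 150 bases). Alternatives were other scaling, no filter, other tools, only the libraries compared, a replicate block, and libraries left out.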

Additional observations from a re-analysis of the deposited data

How the results depend on the processing

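Of 110 alternative counts of members called over the 7 comparisons, 103 stayed at 0. In Phlpp1/2 KO against WT the count was 2 with no filter on low counts (Phgdh, adjusted p = 0.0263, and Psat1, 0.0487; edgeR), with 102 in place of 39 genes called in all, and 1 with DESeq2 (160 in all). In Phlpp1/2 KO against Phlpp2 KO it was 2 with no filter (Phgdh, 0.00651, and Psat1, 0.0188; 32 in place of 12 in all), 1 with DESeq2 (39 in all), 1 with library totals (Phgdh, 0.0496) and 0 to 2 with single libraries left out, the 2 (Phgdh, 0.0452, and Psat1, 0.0467) without Phlpp1/2 KO 3, where 132 genes were called in all. In Phlpp1 KO against Phlpp2 KO it was 0 to 1 with single libraries left out, the 1 (Got1, 0.0471) without Phlpp2 KO 1, where 207 in place of 25 genes were called in all. The cause of these moves was not tested.

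What samples with the same replicate number share was not stated. Over 18 pairs of libraries with the same number, the correlation of deviations ran from -0.216 to 0.404 (mean -0.0082). Over 36 pairs with different numbers it ran from -0.37 to 0.349 (mean 0.0039), so pairs with the same number were not more alike on average. With the number as a replicate block, 0 members were called in each of the 7 comparisons, and all-gene calls were 245 in place of 89 for Phlpp1 KO against WT, 84 in place of 20 for Phlpp2 KO against WT, 29 in place of 39 for Phlpp1/2 KO against WT, 10 in place of 12 for Phlpp1/2 KO against Phlpp2 KO, 15 in place of 25 for Phlpp1 KO against Phlpp2 KO and 308 in place of 8 for the interaction.

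Of 845 alternative values for named genes, 786 kept direction and call, 10 passed the threshold only under the alternative, 16 no longer passed (all Slc43a2) and 33 changed sign, all in members with estimates near 0. On the log2 scale against WT, Ddit3 in Phlpp1 KO was -0.0067 with library totals, -0.024 with limma-voom, -0.23 without both low-Xist libraries, -0.25 without both libraries with most members high (Phlpp1 KO 1 and Phlpp1/2 KO 2, a choice made after seeing the data) and -0.25 to 0.15 with single libraries left out. Ddit3 in Phlpp1/2 KO was -0.029 with limma-voom, -0.012 with the replicate block, -0.25 without both libraries with most members high and -0.25 to 0.16 with single libraries left out. In Phlpp1 KO, Chac1 was -0.058 and Asns -0.085 without both low-Xist libraries, and -0.078 and -0.11 without both libraries with most members high, and with single libraries left out they ran from -0.078 to 0.19 and from -0.11 to 0.090. Asns in Phlpp1/2 KO was -0.028 without both libraries with most members high, and -0.028 to 0.21 with single libraries left out. Leaving out single libraries also turned Trib3 (-0.37 to 0.14 in Phlpp1 KO, -0.34 to 0.17 in Phlpp1/2 KO), Slc7a11 (-0.12 to 0.21 and -0.22 to 0.16) and Mthfd2 in Phlpp2 KO (-0.11 to 0.029).

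Slc43a2 lost its call in Phlpp1/2 KO against WT with library totals (adjusted p = 0.0539), the replicate block (0.0756) and without both libraries with most members high (0.0675), and in Phlpp1 KO against WT without both low-Xist libraries (0.137) and without both libraries with most members high (0.0964). Depth limits Cbs, at 0.575 to 1.13 CPM, most.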
